A study of Mus musculus with 20 samples.

Results

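The genes described here encode parts of the pre-B cell receptor, the B cell receptor and proteins that work beside them: Igll1, Vpreb1, Vpreb3, Ighm, Cd79a, Cd79b, Blnk, Cd22 and Jchain. Every probe set whose annotation gives 1 of these symbols was taken, which gave 21 probe sets of the 45101 on the array, and 9 of the 18194 genes named by a single symbol. Ighm had 11 of these probe sets, Igll1 and Cd22 had 2 each, and the other 6 genes had 1 each. A further 5 probe sets name Vpreb1 or Ighm beside another gene, and they are described apart from the 21.

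The study sorted cells of mice aged 8 to 14 weeks and hybridised amplified RNA to 20 Affymetrix arrays, with the stated aim of finding genes in NK cells that depend on the transcription factor Ets1. From bone marrow of wild type C57bl/6 mice came pro-B cells, CD4 T cells, haematopoietic stem cells (HSC), multipotent progenitors (MPP) and lymphoid primed multipotent progenitors (LMPP), with 2 arrays each. Common lymphoid progenitors (CLP) and granulocyte-monocyte progenitors (GMP), from the same strain and tissue, had 3 arrays each. Mature NK cells came from bone marrow of 129 mice that lacked Rag2, 2 arrays from Ets1-- and 2 from Ets1++ mice. Both NK genotypes therefore lack Rag2, and strain, Rag2 genotype and cell type cannot be told apart where NK cells are set against another population. Nothing in the labels ties replicates to separate mice, and the p-values reflect the spread between these arrays alone, which may be technical.

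A developing B cell first builds an immunoglobulin heavy chain. The mu chain, whose constant region Ighm encodes, reaches the surface together with the surrogate light chain made of the Vpreb and Igll1 proteins and with the signalling pair Cd79a and Cd79b. Blnk, an adaptor protein, carries the signal inward, Cd22 is a sialic acid-binding receptor that dampens B cell receptor signals, and Jchain, best known from plasma cells, joins the subunits of polymeric immunoglobulins.

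Promoter sequences are shown for 4 genes as examples: Cd79a, Blnk and Vpreb3 were higher in CLP than in LMPP, and Jchain was not. They are the 250 bases before the start that the RefSeq promoter table takes for each gene, 5′ to 3′, in GRCm38.p6, the build of that table and not of the array files, which name none. For Vpreb3, and for Cd22, whose window is not shown, that start lies inside the span that RefSeq annotates for the gene, so these windows are not upstream of the whole gene. Capitals mark matches on either strand to the octamer (ATGCAAAT), the E-boxes CAGGTG and CAGCTG, the ETS core GGAAGT, the EBF core CCCNNGGG and the shorter EBF motif CAAGGGA.
Cd79a, chr7:24897247-24897496, plus strand: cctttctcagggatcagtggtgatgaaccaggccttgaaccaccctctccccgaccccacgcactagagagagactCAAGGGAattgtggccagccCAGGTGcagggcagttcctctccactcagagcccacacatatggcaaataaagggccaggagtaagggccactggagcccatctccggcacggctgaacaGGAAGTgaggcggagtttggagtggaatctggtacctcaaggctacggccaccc
Blnk, chr19:40994222-40994471, minus strand: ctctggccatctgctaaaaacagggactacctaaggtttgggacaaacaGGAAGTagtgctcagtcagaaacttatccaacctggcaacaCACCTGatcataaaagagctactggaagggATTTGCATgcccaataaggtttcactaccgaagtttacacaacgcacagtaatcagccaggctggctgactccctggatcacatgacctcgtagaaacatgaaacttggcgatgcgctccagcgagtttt
Vpreb3, chr10:75948050-75948299, plus strand: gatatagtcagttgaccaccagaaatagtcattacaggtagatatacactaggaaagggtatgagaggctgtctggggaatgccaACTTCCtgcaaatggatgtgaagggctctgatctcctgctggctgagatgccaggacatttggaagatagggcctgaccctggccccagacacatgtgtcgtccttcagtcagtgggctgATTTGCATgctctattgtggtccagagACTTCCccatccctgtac
Jchain, chr5:88527898-88528147, minus strand: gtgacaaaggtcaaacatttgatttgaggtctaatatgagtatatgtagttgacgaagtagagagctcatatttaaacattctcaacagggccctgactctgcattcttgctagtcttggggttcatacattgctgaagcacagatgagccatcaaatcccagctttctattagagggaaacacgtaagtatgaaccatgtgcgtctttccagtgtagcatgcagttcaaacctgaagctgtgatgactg
The Cd79a window held CAAGGGA, an E-box and an ETS core. Blnk and Vpreb3 both held an octamer in its reverse-strand form ATTTGCAT, the letters bound by Oct proteins and their B cell coactivator, the product of Pou2af1. None of these motifs matched in the Jchain window, and none of the matches in the windows shown shared a base with another. Of the windows not shown, Cd22, not called between CLP and LMPP, held CAGGTG and an EBF core. Among genes higher in CLP, Vpreb1 held CAGGTG alone, and Igll1 held both E-boxes and an EBF core. No link between motifs and pattern was tested. Of 7 members with a promoter in the table, 2 held the octamer, which 1.6% of 32851 promoters of this length hold. CAGGTG, found in Igll1, Vpreb1, Cd79a, Blnk and Cd22, occurs in 17.2% of them, CAGCTG in 13%, the ETS core in 19.7%, the EBF core in 11.8% and CAAGGGA in 4.21%. A match is a description of letters and was not tested as a binding site.

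The arrays had medians of 3.78 to 4.04 on the log2 scale, and replicates correlated at 0.939 to 0.996 (Pearson, over all probe sets). Levels are log2 intensities of normalised arrays, and differences are given on the same log2 scale as the named population minus the other, with the standard error (SE) of the model. A probe set was called at an adjusted p below 0.05 over all 45101 probe sets. Intensities of different probe sets are not on a common scale, so no gene's level is set against another's, and at low levels an intensity does not tell background from a little RNA. The labelled identities were checked against marker genes. All 5 T cell markers measured were higher on both CD4 T arrays than on every progenitor and NK array, and Ebf1 lay between 9.79 and 11.41 on pro-B and CLP arrays and at or below 2.79 elsewhere. Ms4a1, which encodes the B cell surface protein CD20, was 6.39 and 6.58 on pro-B arrays and 6.36 and 6.66 on CD4 T arrays, and at most 3.34 on any other. The mean of 5 NK markers was 11.20 to 11.31 on NK arrays and at most 5.85 elsewhere. That of 7 myeloid markers was 6.70 to 6.82 in Ets1-present and 4.59 to 5.33 in Ets1-deficient NK cells, against 9.74 to 9.84 in GMP. Csf1r, a myeloid marker, was 8.23 and 8.12 in CD4 T cells. Rag1 was 8.50 and 7.51 in pro-B cells, below every CLP array. The part of other cells in these marker levels was not tested. Ets1 itself was at 11.28 and 10.85 in Ets1-deficient NK cells and 11.34 and 11.45 in Ets1-present NK cells (brightest of 4 probe sets); where its probes lie relative to the deletion is not given, so this does not check the label. The ratio of 3′ to 5′ actin signal, a measure of RNA integrity and amplification, was 3.26 to 5.27 log2 units on CLP arrays and 6.44 to 6.68 on GMP arrays, against 0.98 to 4.07 on the others. Its part in any comparison with CLP or GMP was not tested.

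The surrogate light chain genes stood highest in pro-B cells and next in CLP. Igll1, which encodes the lambda5 chain, had levels of 12.07 and 12.90 on pro-B arrays (probe set 1420176_x_at), against 7.60, 8.45 and 7.99 on CLP arrays. The LMPP arrays were at 5.09 and 5.21, and the HSC arrays at 6.04 and 5.67. All pro-B arrays thus lay above all CLP arrays, and all CLP arrays above those of every remaining population. Pro-B cells averaged 12.49 ± 0.58 (SD, n = 2) and CLP 8.01 ± 0.43 (SD, n = 3), a difference of 4.47 ± 0.31 (SE, 22.2-fold, adjusted p = 1.35e-08). CLP exceeded LMPP by 2.86 ± 0.31 (SE, 7.28-fold, adjusted p = 8.26e-06). The order below CLP was HSC, MPP, GMP, LMPP, CD4 T, Ets1-present NK and Ets1-deficient NK cells, and from MPP downwards the arrays of each population overlapped those of the next. The second Igll1 probe set, 1420177_at, was dim on every array, with a highest value of 4.54 on pro-B array 2 and 3.45 on the other. Its call against CLP (0.82, adjusted p = 0.0207) was lost without pro-B array 2 (0.27, adjusted p = 0.455).

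Vpreb1, which pairs with the Igll1 product and lies next to Igll1 on chromosome 16, had its larger step earlier. Its levels were 11.84 and 12.93 on pro-B arrays and 9.53, 10.22 and 8.99 on CLP arrays, against 3.82 and 4.36 on LMPP arrays. No population other than pro-B cells and CLP had an array above 5.17. The larger of its 2 steps was CLP over LMPP, 5.49 ± 0.39 (SE, 44.8-fold, adjusted p = 4.73e-08), with pro-B cells above CLP by 2.81 ± 0.39 (SE, 6.99-fold, adjusted p = 6.1e-05). For Igll1 the step to pro-B cells was the larger one; whether the steps of these genes differ was not tested, and both use the same CLP arrays. The probe set shared by Vpreb2 and Vpreb1 (1422416_s_at) read 8.60 and 8.60 in pro-B cells and 4.82, 5.64 and 4.43 in CLP, against 3.25 and 3.48 in LMPP. Pro-B cells stood 3.64 ± 0.28 (SE) above CLP on it (adjusted p = 5.98e-08), with no overlap.

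Vpreb3, a protein related to the Vpreb chains that associates with immunoglobulin chains inside the cell, rose at both steps. Its levels were 8.92 and 8.69 on pro-B arrays and 5.82, 5.63 and 5.50 on CLP arrays, against 4.34 and 4.23 on LMPP arrays. The remaining populations overlapped one another between 4.02 and 4.6. Pro-B cells exceeded CLP by 3.15 ± 0.23 (SE, 8.90-fold, adjusted p = 3.05e-08). CLP exceeded LMPP by 1.37 ± 0.23 (SE, adjusted p = 0.000761), a call that was lost when the 5 arrays compared were fitted alone (adjusted p = 0.0831).

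**Figure D1:**
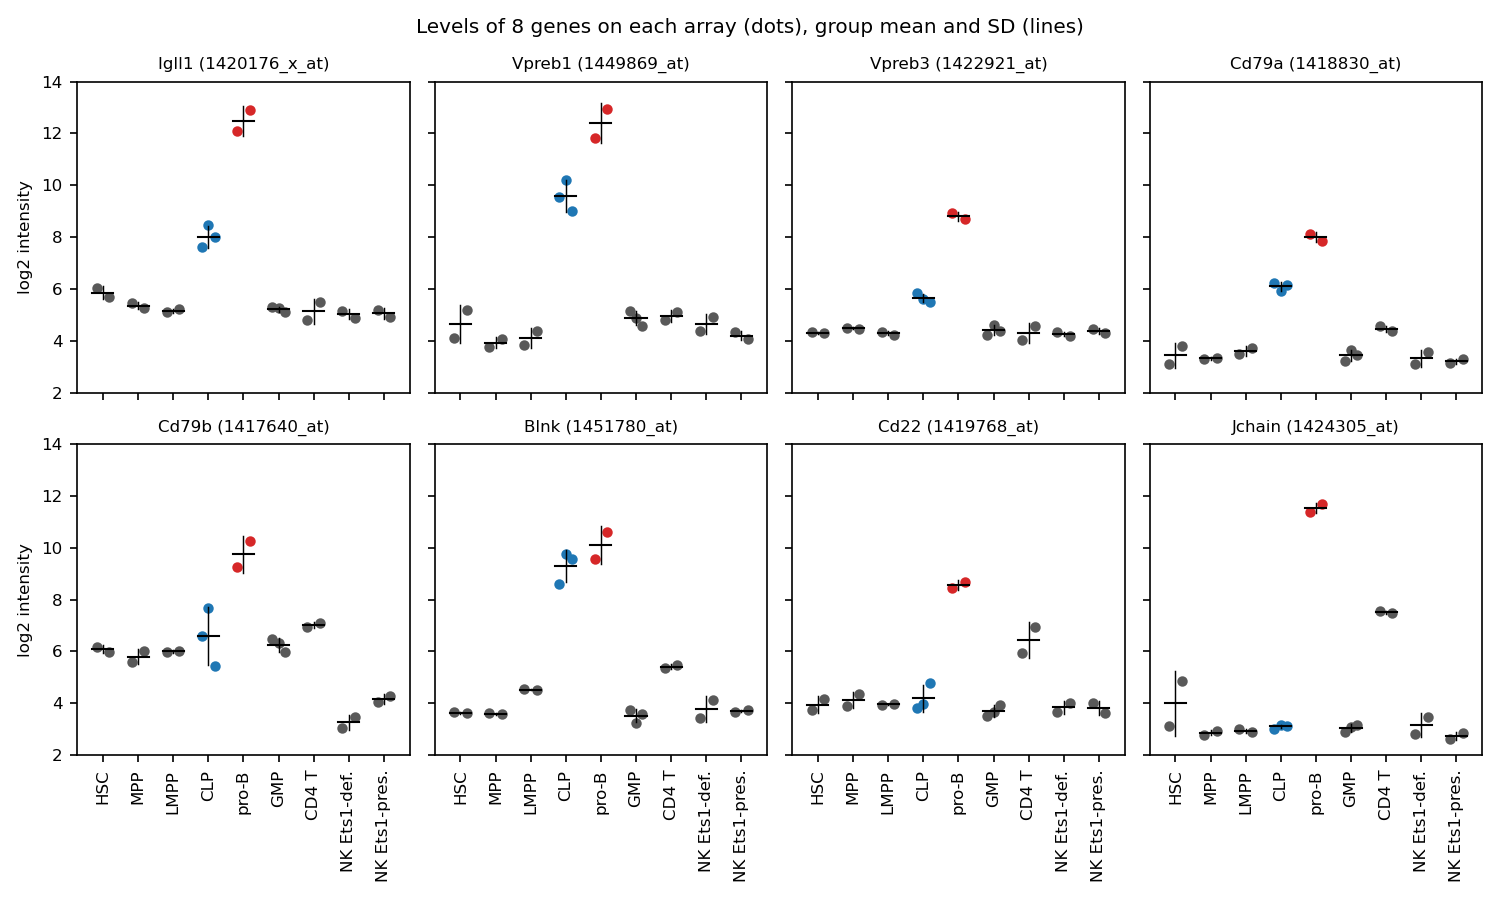
Log2 intensity (y axis) of 8 genes on each array (dots), by population (x axis), with the group mean as a horizontal and the SD as a vertical line. Pro-B arrays are red and CLP arrays blue; Igll1, Vpreb1, Vpreb3, Cd79a and Blnk are above LMPP in CLP, whereas Cd22 and Jchain stand out in pro-B and CD4 T cells.

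Cd79a, the immunoglobulin alpha chain, was at 8.13 and 7.86 in pro-B cells and 6.22, 5.90 and 6.17 in CLP, against 3.47 and 3.72 in LMPP. CD4 T cells, at 4.55 and 4.37, came next after CLP with no overlap on either side, and the other 6 populations overlapped at or below 3.78. Cd79a rose in CLP by 2.50 ± 0.25 over LMPP (SE, 5.65-fold, adjusted p = 2.81e-06) and in pro-B cells by 1.90 ± 0.25 over CLP (SE, 3.73-fold, adjusted p = 2.77e-05).

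Cd79b, the immunoglobulin beta chain, was not called between CLP and LMPP. It was at 9.25 and 10.25 in pro-B cells and at 6.61, 7.68 and 5.44 in CLP, against 5.97 and 6.03 in LMPP. The CLP arrays reached both above and below the LMPP arrays. CLP differed from LMPP by 0.58 (95% interval -0.34 to 1.50, adjusted p = 0.443). With CLP array 2, the brightest CLP array for Cd79b, as the single CLP array the difference was 1.68. That array also had the lowest 3′ to 5′ ratio of the CLP arrays, and the part of the ratio was not tested. With housekeeping centring the difference was 1.59 (adjusted p = 0.00115), under a scaling that moved the median of all probe sets from 0.07 to 1.07. Whether the steps of Cd79a, Cd79b and Blnk differ was not tested. Pro-B cells exceeded CLP by 3.17 ± 0.44 (SE, 9.03-fold, adjusted p = 5.4e-05). Cd79b was also the gene with a clear low group: NK cells had 3.06 and 3.47 without Ets1 and 4.04 and 4.29 with it, below every array of the other populations.

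Blnk was already near its pro-B level in CLP. Pro-B arrays had 9.58 and 10.63 and CLP arrays 8.61, 9.76 and 9.56, against 4.55 and 4.50 in LMPP. The ranges of pro-B cells and CLP overlapped, while CLP lay far above all remaining arrays, whose highest value was 5.47 in CD4 T cells. Blnk was higher in CLP than in LMPP by 4.78 ± 0.34 (SE, 27.6-fold, adjusted p = 4.73e-08). The difference between pro-B cells and CLP was 0.79 (95% interval 0.08 to 1.51) and was not called (adjusted p = 0.114). It was called without pro-B array 1 (1.32, adjusted p = 0.0321) and without CLP array 2 (1.02, adjusted p = 0.0373).

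Cd22 and Jchain shared another pattern, high in pro-B cells, intermediate in CD4 T cells and low in CLP. Cd22 (1419768_at) was at 8.44 and 8.69 in pro-B cells and 5.95 and 6.93 in CD4 T cells, against 3.81, 3.99 and 4.78 in CLP. All other arrays were at or below 4.36, and CLP did not stand apart from them. Pro-B cells exceeded CLP by 4.37 ± 0.32 (SE, 20.7-fold, adjusted p = 2.82e-08), whereas CLP and LMPP differed by 0.24 (95% interval -0.43 to 0.91, adjusted p = 0.695). On the second Cd22 probe set, 1419769_at, the pro-B arrays disagreed with each other, at 5.51 and 3.43, and its call against CLP (1.21, adjusted p = 0.0277) was lost without pro-B array 1 (0.16, adjusted p = 0.717) and without CLP array 2 (1.05, adjusted p = 0.0604).

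Jchain was bright in pro-B and CD4 T cells and dim in CLP. It was at 11.39 and 11.68 in pro-B cells and 7.56 and 7.48 in CD4 T cells, against 3.02, 3.17 and 3.13 in CLP. HSC array 2, at 4.88, was the only other array above 3.49. Pro-B cells were higher than CLP by 8.43 ± 0.35 (SE, 345-fold, adjusted p = 5.5e-12), and CLP differed from LMPP by 0.17 (95% interval -0.56 to 0.89, adjusted p = 0.811).

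The 11 Ighm probe sets did not behave as one. A pair, 1427329_a_at and 1427351_s_at, was bright in most populations, and a group of 4 was bright in pro-B cells alone. On 1425247_a_at the pro-B arrays were at 10.91 and 11.34 and the CLP arrays at 3.69, 2.93 and 3.08, and no array outside pro-B cells exceeded 4.18. Pro-B cells exceeded CLP on it by 7.89 ± 0.26 (SE, 238-fold, adjusted p = 3.32e-13). The same pattern held for 1425324_x_at (6.94 ± 0.23), 1427756_x_at (6.17 ± 0.24) and 1427870_x_at (5.84 ± 0.26), all with an adjusted p of at most 1.28e-11 and no array outside pro-B cells above 6.36.

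A further pair of Ighm probe sets was uneven between the pro-B arrays. Probe set 1425385_a_at had 6.46 and 10.07 in pro-B cells, 6.09 and 6.24 in CD4 T cells and 3.95, 3.98 and 4.75 in CLP, and 1427869_at had 4.15 and 6.76 in pro-B cells, against 2.90, 3.03 and 2.75 in CLP. Pro-B array 2 exceeded array 1 by 3.62 and 2.61 on them, ranks 26 and 68 by size among all probe sets. Both were called higher in pro-B cells than in CLP (4.04 ± 0.60, adjusted p = 0.000113, and 2.56 ± 0.43, adjusted p = 0.000326). Against CD4 T cells the call of 1425385_a_at (2.10, adjusted p = 0.0348) was lost without pro-B array 2 (0.29, adjusted p = 0.78) and without either CD4 T array (adjusted p = 0.145 and 0.115). The call of 1427869_at there (1.95, adjusted p = 0.00598) was lost without pro-B array 2 (0.65, adjusted p = 0.093) or without CD4 T array 2 (1.72, adjusted p = 0.0695). The remaining 3, 1426196_at, 1451949_at and 1452535_at, were at most 4.93 on any array. The 4 Ighm probe sets shared with variable or gamma chain genes stayed at or below 3.74.

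The bright pair differed between the HSC arrays more than any other probe set on the array. HSC array 2 read 10.01 and array 1 read 3.07 on 1427329_a_at, and 11.29 against 4.43 on 1427351_s_at. These gaps of 6.94 and 6.87 log2 units rank 1 and 2 by size of all 45101 probe sets. Jchain differed by 1.76 in the same direction (rank 476), Vpreb1 by 1.06, and the other Ighm probe sets by -0.81 to 0.47. Of 4 erythroid markers, Klf1 (9.47 on HSC array 2 against 6.61 on array 1), Gata1 (8.40 against 6.89) and Epor (7.01 against 5.78) were higher on array 2. Hba-a1 was lower there (2.68 against 3.50). Among markers of mature B and plasma cells Mzb1 was 5.72 on array 2 against 4.32 on array 1. Cr2 and Xbp1 were higher on array 2 by less, and Ms4a1, Fcer2a, Prdm1 and Sdc1 were lower. The part of other cells in these gaps was not tested.

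Outside HSC the bright pair was lowest in MPP, at 5.96 and 4.82 on 1427329_a_at, and the other populations formed a ladder. On 1427329_a_at LMPP had 10.65 and 10.77, CLP 9.93, 10.94 and 10.11, pro-B cells 11.67 and 11.95, and CD4 T cells 11.25 and 11.33. GMP lay at 8.45, 8.27 and 8.39 and the 4 NK arrays between 8.29 and 8.75, overlapping each other and below every LMPP and CLP array. On 1427351_s_at pro-B cells were at 12.46 and 12.90, CD4 T cells at 12.29 and 12.47, CLP at 11.04, 11.11 and 11.67, LMPP at 11.13 and 11.13, GMP at 10.36 to 10.50 and NK arrays at 10.30 to 10.39. CLP and LMPP overlapped on both probe sets, with the mean of LMPP the higher on 1427329_a_at and that of CLP on 1427351_s_at. As background, Rag2 is needed to rearrange the heavy chain gene, and both NK groups are labelled as lacking it.

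The gap between the HSC arrays widened the pooled error of this pair, with an SE of 1.08 and 1.07 for pro-B cells against CLP, and neither was called there (1.49, adjusted p = 0.364, and 1.41, adjusted p = 0.384). In a fit without the HSC arrays, chosen after the data were seen, both were called (adjusted p = 0.0034 and 0.00387). There GMP were also called lower than LMPP on 1427329_a_at (-2.34, adjusted p = 6.64e-05, against 0.179 with the HSC arrays), and not called on 1427351_s_at (-0.70, adjusted p = 0.163).

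**Figure D2:**
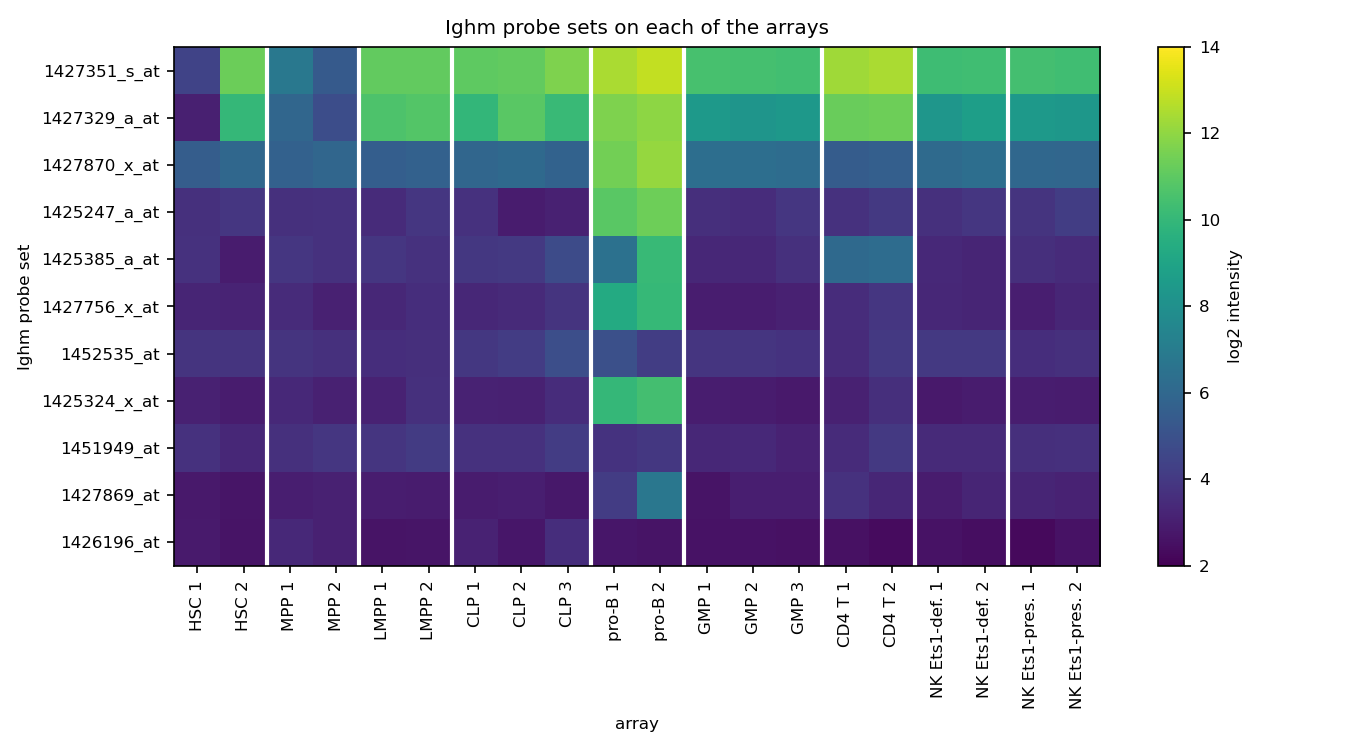
Log2 intensity (colour) of the 11 Ighm probe sets (rows, ordered by mean) on each of the 20 arrays (columns, white lines between populations). The upper pair is bright on most arrays but not on HSC array 1 or the MPP arrays, and 1427870_x_at, 1425247_a_at, 1427756_x_at and 1425324_x_at are bright on pro-B arrays alone.

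Over all members, 15 of 21 probe sets, from 8 genes, were called higher in pro-B cells than in CLP and none lower, where 10.8% of all probe sets were called higher and 8.65% lower. Their median difference was 2.81, against -0.09 over all probe sets. The 6 not called were Blnk and 5 Ighm probe sets. The 3′ to 5′ actin ratio was 2.07 and 3.11 in pro-B cells, below every CLP array (3.26 to 5.27), and its part in the result was not tested. Of the 21 probe sets, 18 exceeded the median of an array on 2 arrays or more, and no filter was applied in the test. Centring on 12 housekeeping genes moved the median of all probe sets to -0.85 and the split of calls to 2301 higher and 23262 lower, against 4879 and 3903. The members named above by their brightest probe set, Blnk and Ighm apart, stayed called. The mean level of 7 markers of mature B and plasma cells was 5.96 to 6.00 in pro-B cells and 4.59 to 5.27 in CLP. Only Ms4a1 (3.74) and Mzb1 (3.75) of them were called higher in pro-B cells, and both lay above every progenitor and NK array. Fcer2a was called lower (-0.51, adjusted p = 0.0283), and Cr2, Xbp1, Prdm1 and Sdc1 were not called. The part of these markers in the result was not tested, and in bulk samples fewer cells of a type and less RNA per cell cannot be told apart.

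CLP against LMPP gave a smaller set. Igll1, Vpreb1, Vpreb3, Cd79a and Blnk were called higher, 5 of 21 probe sets, and none lower, where 4.39% of all probe sets were called higher and 8.37% lower. The members' median difference was 0.28, against 0.07 over all probe sets. The 3′ to 5′ actin ratio differed between these populations, at 3.26 to 5.27 in CLP and 1.92 to 2.10 in LMPP, and its part in the result was not tested. On CLP array 2, whose ratio of 3.26 was still above both LMPP arrays, the same 5 probe sets were higher than on either LMPP array. Cd79b was brightest on that CLP array, at 7.68 against 6.61 and 5.44 on the others. With that array as the single CLP array, Cd79b differed from LMPP by 1.68, against 0.58 with all CLP arrays. Centring on housekeeping genes raised the median of all probe sets to 1.07, turned the split of calls to 32867 higher and 1216 lower, against 1981 and 3775, and had 17 of the 21 members called higher. Under that scaling Cd22 (1.25) and Jchain (1.18) were called with differences near the shift itself, and Cd79b (1.59) with a difference further above it.

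**Figure D3:**
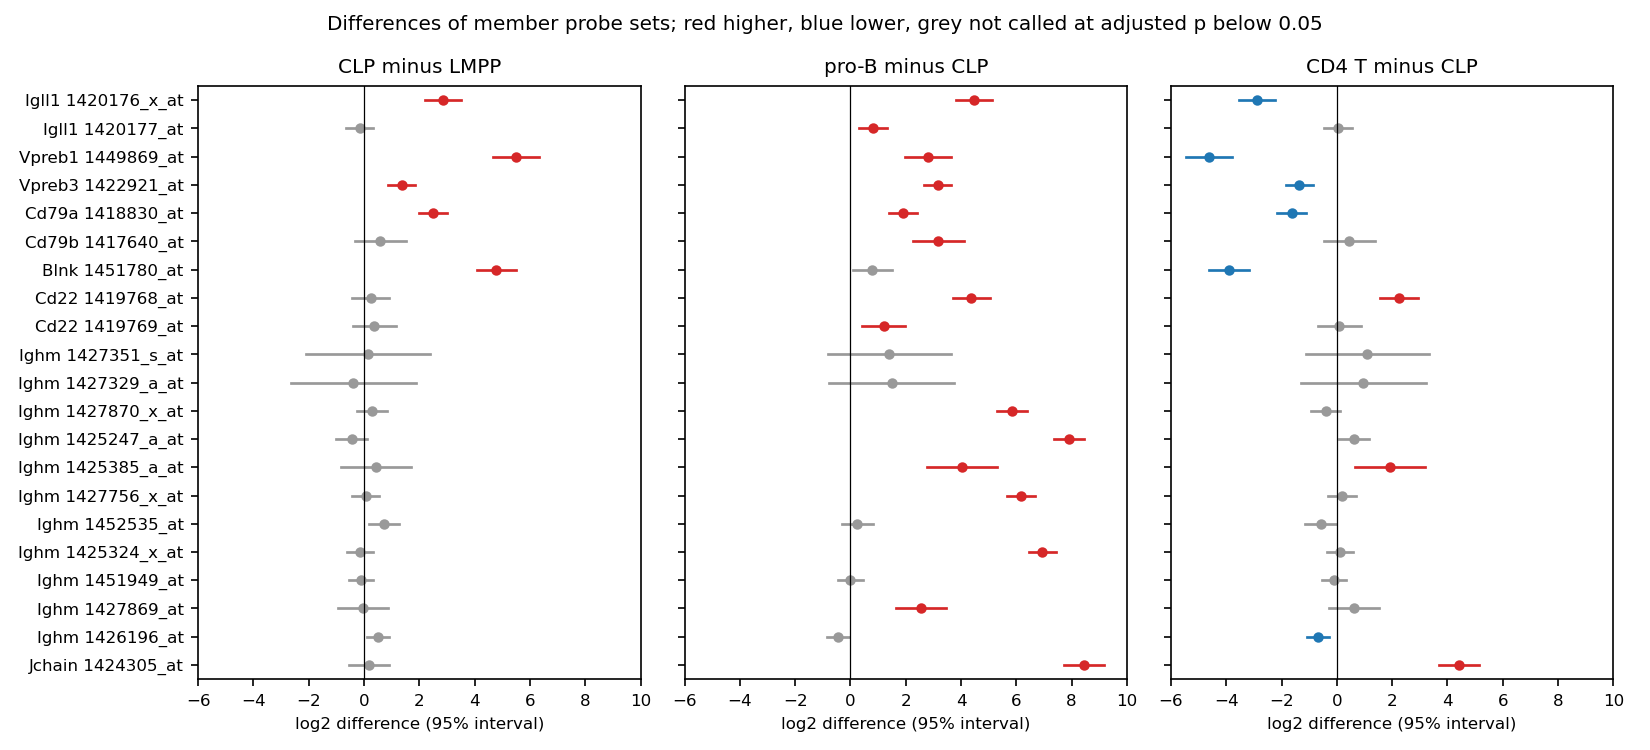
Log2 differences (points) with 95% intervals (lines) of the 21 member probe sets for CLP minus LMPP, pro-B cells minus CLP and CD4 T cells minus CLP, with calls higher in red, lower in blue and not called in grey. By their brightest probe sets, Igll1, Vpreb1, Vpreb3 and Cd79a are red in both of the left panels and blue in the right one. Cd22 and Jchain, taken the same way, are grey in the first panel and red in the others.

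CD4 T cells and CLP split the members. In CD4 T cells 3 of 21 probe sets were higher, where 16% of all were, and 6 were lower, where 14% were. The higher ones were Jchain by 4.41 (adjusted p = 1.5e-08), Cd22 by 2.25 ± 0.32 (SE, adjusted p = 2.96e-05) and Ighm 1425385_a_at by 1.94 (adjusted p = 0.0206), the last lost without either CD4 T array (adjusted p = 0.0843 and 0.105) and without CLP array 1 (0.0615). The lower ones were Vpreb1 (-4.63), Blnk (-3.90), Igll1 (-2.88), Cd79a (-1.64) and Vpreb3 (-1.36), all with an adjusted p of at most 0.00021, and the dim Ighm 1426196_at (-0.69, adjusted p = 0.00894, and 0.0939 without CD4 T array 2). The bright Ighm pair lay higher in CD4 T cells than on every CLP array, by 0.96 on 1427329_a_at (adjusted p = 0.53) and 1.11 on 1427351_s_at (adjusted p = 0.46), and was not called. Without the HSC arrays, a fit chosen after the data were seen, both were called (adjusted p = 0.0313 and 0.0125). That makes 5 of 21 higher, where that fit called 7447 of all 45101 probe sets higher. Probe set 1427351_s_at was also called on the compared arrays alone (adjusted p = 0.0424). Cd79b differed by 0.45 (95% interval -0.48 to 1.37, adjusted p = 0.472), turned to -0.04 with quantile normalization, -0.32 with housekeeping centring and -0.12 without CLP array 3, and was called without CLP array 2 (1.00, adjusted p = 0.0398). Beside Jchain and Cd22 in CD4 T cells, Ms4a1, Fcer2a and Cr2, 3 of the 7 mature B or plasma markers, were above every progenitor and NK array. Prdm1 (6.21 and 5.42) was above CLP (3.15 to 3.28) and below the NK arrays (7.78 to 8.23), and Xbp1 overlapped CLP. Sdc1 (3.02 and 3.24, against 6.08 to 7.33) and Mzb1 (5.64 and 5.38, against 5.70 to 7.42) were below every CLP array. The list's mean was 5.43 to 5.64 in CD4 T cells and 4.59 to 5.27 in CLP. Rag1, at 2.64 and 2.90, and Ebf1, at 2.76 and 2.75, were low in CD4 T cells. The part of other cells in these levels was not tested. The 3′ to 5′ actin ratio was 0.98 and 1.23 in CD4 T cells and 3.26 to 5.27 in CLP, and its part was not tested either.

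Pro-B cells exceeded CD4 T cells on 14 of 21 probe sets, from all 9 genes, and none was lower, where 6.2% of all probe sets were called higher and 9.8% lower. The differences of the genes' brightest probe sets were 7.44 for Vpreb1, 7.35 for Igll1, 4.69 for Blnk, 4.51 for Vpreb3, 4.02 for Jchain, 3.54 for Cd79a, 2.73 for Cd79b and 2.12 for Cd22, with an adjusted p of at most 0.00038 each. For Ighm 1427351_s_at the difference was 0.31 (95% interval -2.15 to 2.76, adjusted p = 0.918), with overlapping arrays.

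Against NK cells, as the mean of both genotypes, pro-B cells were higher on 18 of 21 probe sets, from all 9 genes, and none was lower, where 7.67% of all were called higher and 12.9% lower. Jchain differed by 8.59 ± 0.33, Vpreb1 by 7.96 ± 0.37, Igll1 by 7.45 ± 0.29, Blnk by 6.37 ± 0.33 and Cd79b by 6.04 ± 0.42 (SE). Of the 3 not called, Ighm 1427351_s_at differed by 2.36 (adjusted p = 0.115) and was called without the HSC arrays (adjusted p = 1.16e-05). Ighm 1427329_a_at was called (3.34, adjusted p = 0.0249) and lost the call without either pro-B array, either Ets1-present NK array or Ets1-deficient NK array 1 (adjusted p = 0.0512 to 0.156).

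Earlier in the hierarchy little was called. Between LMPP and HSC limma called 0 of 21 probe sets, where 4.3% of all were called, and 4 of 21 had an unadjusted p below 0.05, as did 6430 of all 45101. Blnk was 4.55 and 4.50 in LMPP and 3.67 and 3.61 in HSC, without overlap, and the difference of 0.89 (95% interval 0.10 to 1.68) was not called (adjusted p = 0.259). The bright Ighm pair differed by 4.17 (adjusted p = 0.0524) and 3.27 (adjusted p = 0.153), and without HSC array 2 by 7.64 (adjusted p = 2.66e-08) and 6.71 (adjusted p = 1e-07). Without HSC array 1 the differences were 0.70 (adjusted p = 0.567) on 1427329_a_at and -0.16 (adjusted p = 0.939) on 1427351_s_at, the second with its direction turned. The count of called members was 1 without HSC array 1 and 2 without HSC array 2. Jchain differed by -1.06 (adjusted p = 0.151), and without HSC array 1 by -1.94 (adjusted p = 0.00069). Between GMP and LMPP only Ighm 1451949_at was called, and it was lower in GMP (-0.69, adjusted p = 0.032), where 6.6% of all probe sets were called lower and 8.24% higher, and that call was lost without any 1 of the 5 arrays compared (adjusted p = 0.0601 to 0.263). Blnk was 3.73, 3.26 and 3.60 in GMP and thus below both LMPP arrays, with a difference of -0.999 (95% interval -1.72 to -0.28, adjusted p = 0.0571). It was called lower with the filter on dim probe sets (adjusted p = 0.0404), with quantile normalization (0.0362), on the compared arrays alone (0.000677) and with the replicate block (0.0392).

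The Ets1 genotypes of NK cells, the comparison for which the study was designed, were set against each other for all members. None of the 21 probe sets was called by limma, 0 had an unadjusted p below 0.05, and 2.5% of all probe sets were called and 4849 of 45101 had such a p. On 8 of 21 probe sets the 2 genotypes' arrays were fully separate, as on 47.7% of all probe sets. The widest gap between means was that of Cd79b, at 3.27 ± 0.28 without Ets1 and 4.16 ± 0.18 with it (SD, n = 2 each). The difference of -0.90 had a 95% interval of -1.91 to 0.12 (adjusted p = 0.583). For Cd79a, Blnk, Igll1, Vpreb3 and Cd22 (brightest probe sets) the differences lay between -0.12 and 0.11, with intervals reaching 0.87 in size. Vpreb1 (0.45, 95% interval -0.45 to 1.36) and Jchain (0.41, 95% interval -0.38 to 1.21) were higher without Ets1 in their means and not called (adjusted p = 0.928 and 0.915); the NK arrays of the genotypes were separate for Vpreb1 and overlapped for Jchain.

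**Figure D4:**
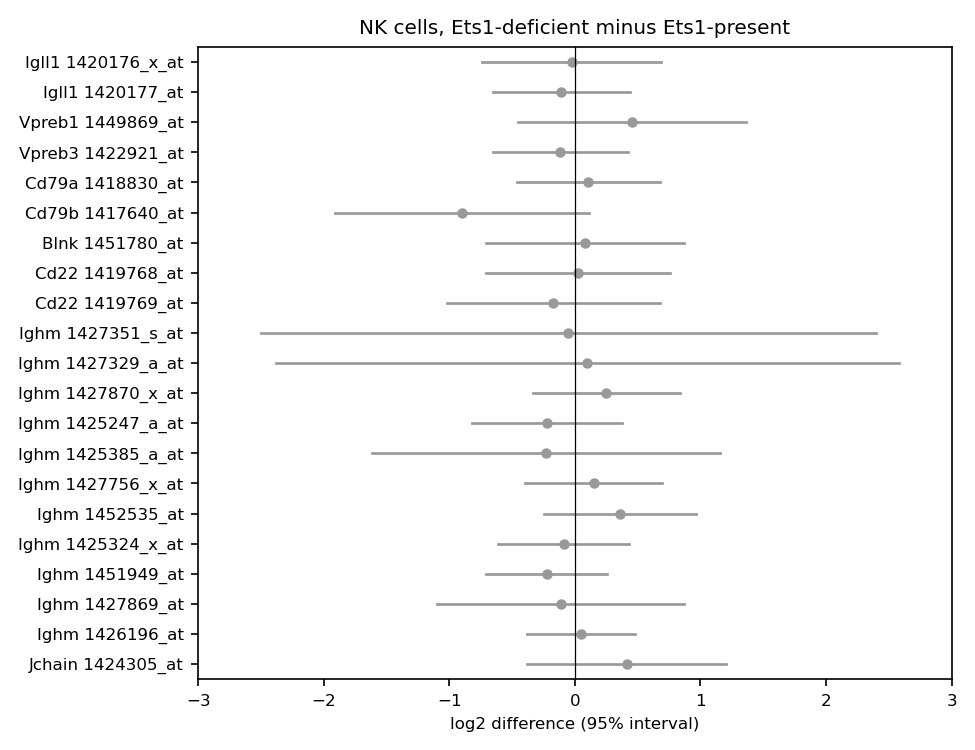
Log2 differences (points) with 95% intervals (lines) of the 21 member probe sets, Ets1-deficient minus Ets1-present NK cells. Every interval includes 0; Cd79b lies farthest from it, at -0.90.

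Across the 9 group means the members fell into similar profiles, given here as Pearson correlations of means that share the same arrays. Igll1 and Vpreb3 correlated at 0.991, Cd22 and Jchain at 0.989, Vpreb1 and Cd79a at 0.981, and Cd79a and Blnk at 0.974. Ighm 1427351_s_at stood apart, with at most 0.595 to any other member. Its HSC mean joins arrays at 4.43 and 11.29, and the other Ighm probe sets, among them those bright in pro-B cells alone, were not included. Among 5174 genes whose group means span at least 2 log2 units, Scn4b (0.992) was most like Igll1, Bst1 (0.989) most like Vpreb3, and Blk, a Src family kinase of B cells, most like Vpreb1 (0.986) and Cd79a (0.982). Blnk was most like Tmem108 (0.982) and Ebf1 (0.975), which encodes a factor that specifies B cells. Rragd (0.995) and Spib (0.993), an ETS family factor, were most like Cd22, and Rragd (0.991) most like Jchain. Cd79b and Ighm had no such gene above 0.95, the highest being Hes5 (0.927) and Ctss (0.912).

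Genes that work with the members were also compared between pro-B cells and CLP, where 14.1% of 18194 genes were called higher and 9.55% lower with a median difference of -0.08. Of 22 measured genes of pre-B and B cell receptor signalling, 8 rose and 3 fell, with a median of 0.34. That balance turned with the scaling, to 5 higher and 7 lower with quantile normalization and 3 higher and 8 lower with housekeeping centring. Blk rose by 2.19 ± 0.28, Fcrla, an Fc receptor-like protein of B cells, by 2.15 ± 0.29 and protein kinase C beta, Prkcb, by 1.69 ± 0.35, whereas Malt1, a protease of the NF-kappaB pathway, differed by -2.91 ± 0.58 (SE). Syk, the kinase that docks on Cd79a and Cd79b, fell by 0.95 on the log2 scale (adjusted p = 0.011), and Btk, the kinase that Blnk brings to its substrate, rose by 1.51 (adjusted p = 0.0103). Of these 22 genes 7 were called without pro-B array 1 and 6 without pro-B array 2, against 11 with both.

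Of 20 regulators of B lineage genes, 9 rose and 3 fell, with a median of 0.34, against 8 higher and 6 lower with quantile normalization and 8 and 8 with housekeeping centring. Pou2af1, the octamer coactivator, rose by 4.98 ± 0.51, Spib by 4.19 ± 0.24, the E protein inhibitor Id3 by 4.06 ± 0.33 and Ikzf3, a zinc finger factor, by 3.79 ± 0.28 (SE). Ebf1 (0.20, adjusted p = 0.732) and Pax5 (0.27, adjusted p = 0.511), known to activate Igll1, Vpreb1 and Cd79a, were not called. Of 18 other B cell surface genes, 8 rose and 2 fell, with a median of 0.74, against 6 higher and 2 lower with quantile normalization and 5 and 5 with housekeeping centring, and 5 were called in all without pro-B array 2. Ms4a1 rose by 3.74 ± 0.25, Bst1 by 2.22 ± 0.21, Fcmr, an IgM receptor, by 2.20 ± 0.34 and Tnfrsf13b by 2.16 ± 0.43 (SE). Of 10 plasma cell genes, 3 rose and none fell (2 and 1 with housekeeping centring): Mzb1, a chaperone of IgM assembly, by 3.75 ± 0.40, Irf4 by 3.56 ± 0.33 and Tnfrsf17 by 0.89 ± 0.19 (SE). Xbp1 (0.48, adjusted p = 0.424), Prdm1 (-0.19, adjusted p = 0.657) and Sdc1 (-0.02, adjusted p = 0.979), also plasma cell genes, were not called.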

How the data were processed

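RNA of sorted cells was amplified in 2 rounds and hybridised to Affymetrix mouse arrays, per the labels' protocols. The authors' deposited table holds 1 linear intensity per probe set and array (3.192 to 23596.2), made with RMA per the submitters' processing notes, with its version not given in the sources used here. RMA values are usually log2; since these were linear, log2 was taken first. Genes were named from the platform annotation: 34958 probe sets had 1 symbol, 932 several and 9211 none.

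All 45101 probe sets were fitted without a filter by limma 3.58.1 in R 4.3.3, with 9 group means over 20 arrays and 11 residual degrees of freedom, eBayes with an intensity trend and Benjamini-Hochberg adjustment over all probe sets. Intervals are 95%. The number of arrays limits the precision. A gene with several probe sets was represented by the one of highest mean. On data simulated for pro-B cells against CLP (10 sets of 45101 probe sets, 200 of them changed), 36.9% of changes of 1 log2 unit and 88.7% of 2 were recovered, with 4.43% false calls. Many more probe sets were called in the data (4879 higher and 3903 lower), so these rates need not hold for the reported fit. Figures were drawn with matplotlib 3.10.9 in Python 3.11.15.

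The members, gene lists, motifs and comparisons were chosen with earlier results of these data known. By rule every member probe set is accounted for, up to 4 called genes with the largest change are named per list, and up to 3 genes of like profile per member are ranked. Syk, Btk, Ebf1, Pax5, Xbp1, Prdm1 and Sdc1 were named outside the rule after their values were seen. Alternatives covered a filter on dim probe sets, no trend, quantile normalization, housekeeping centring, the compared arrays alone, a replicate block, CLP array 2 as the single CLP array, a 2-fold threshold and each replicate left out. A fit without the HSC arrays was added after the data were seen.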

Additional observations from a re-analysis of the deposited data

How the results depend on the processing

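With 2 or 3 arrays a group, small differences were beyond the reach of the tests, and dim probe sets carry no detection call. Every named call of the reported fit on the brightest probe set of Igll1, Vpreb1, Cd79a, Cd79b, Cd22, Blnk and Jchain held under each alternative run, Vpreb3 (CLP against LMPP) being the exception given above. Counts of called members stayed within 1.5 times the reported count, except as follows. For LMPP against HSC (0 reported) there was 1 with the filter on dim probe sets, with quantile normalization and with the replicate block, 2 with housekeeping centring, and 0 to 2 with each replicate left out. For GMP against LMPP (1 reported) there were 2 with the filter, without trend, with quantile normalization, with housekeeping centring and without the HSC arrays, 3 with the replicate block, 9 on the compared arrays alone, and 0 with the 2-fold threshold or any replicate left out. On the compared arrays alone, 7690 of all 45101 probe sets were called higher in GMP than in LMPP and 7654 lower, against 3716 and 2977 in the reported fit. CLP against LMPP had 17 (5 reported) with housekeeping centring, where 32867 of all probe sets were called higher and 1216 lower, against 1981 and 3775. Of the gene lists, signalling (11 called) gave 3 on the compared arrays alone, 7 with CLP array 2 as the single CLP array and 6 to 15 with replicates left out. Regulators (12) gave 7 on the compared arrays alone. Other surface genes (10) gave 4 on the compared arrays alone, 5 with CLP array 2 alone and 5 to 11 with replicates left out. For pro-B cells against CLP, the compared arrays alone gave 1281 of all probe sets called higher and 624 lower, against 4879 and 3903 in the reported fit. The cause of these changes was not tested.

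Differences that changed sign were not called in the reported fit. For CLP minus LMPP, Ighm 1427756_x_at (0.059) gave -0.085 with quantile normalization, -0.033 with the replicate block, -0.043 with CLP array 2 as the single CLP array and -0.081 to 0.156 with replicates left out. Igll1 1420177_at (-0.16) gave 0.848 with housekeeping centring and -0.333 to 0.014 with replicates left out. Ighm 1427869_at (-0.029) gave 0.979 with housekeeping centring, 0.105 with CLP array 2 alone and -0.096 to 0.042 with replicates left out. Ighm 1451949_at (-0.103) gave 0.905 with housekeeping centring and -0.235 to 0.016 with replicates left out, and Cd22 1419768_at gave -0.053 to 0.429. For CD4 T cells minus CLP, Cd79b gave -0.042 with quantile normalization, -0.324 with housekeeping centring, -0.655 with CLP array 2 alone and -0.123 to 0.996 with replicates left out, and Ighm 1425247_a_at gave -0.15 with housekeeping centring. LMPP minus HSC for Ighm 1427351_s_at gave -0.163 to 6.706 with replicates left out, its ends being without HSC arrays 1 and 2. The cause was not tested, except that housekeeping centring adds a constant to every probe set.

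Same-numbered replicates correlated at -0.17 to 0.17 in their deviations, which does not establish that the numbers pair the arrays. The replicate block is given only as an alternative, here and for Blnk and Vpreb1 in GMP against LMPP. Calls over all probe sets also moved with scaling, as higher and lower: quantile normalization gave 3430 and 3834 (reported 2797 and 4419) for pro-B against CD4 T cells, 4455 and 5008 (3457 and 5835) against NK cells and 2667 and 3353 (1981 and 3775) for CLP against LMPP. Housekeeping centring gave 3542 and 25013 (7232 and 6312) for CD4 T cells against CLP, 5273 and 1551 (3716 and 2977) for GMP against LMPP and 168 and 458 (452 and 674) for the NK genotypes.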
